A study of Mus musculus with 15 samples.

Results

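Loss of the tumour suppressor Apc and fusion of Rspo3 to Ptprk each allowed mouse intestinal organoids to grow without added RSPO1, and the transcriptomes of these organoids are set side by side here. The 8 libraries were chosen by genotype and medium, from 15 in the series: 4 from Apc-deleted organoids and 4 from P-Rspo3 organoids, all cultured in EN medium, which holds EGF and Noggin but no R-spondin. The organoids were grown from crypts of the proximal small intestine of mice on a mixed C57B6/129 background, and polyadenylated RNA was sequenced. The Apc group (genotype Apc delta/delta) consists of lines 1, 2, 5 and 6, in which floxed Apc was deleted. How the deletion was induced is not given in the sources used here. The P-Rspo3 group (genotype Ptprk-Rspo3) consists of the libraries titled EN15d, EN4d, EN_M and EN_F. They are here called lines 15d, 4d, M and F, although the labels do not say whether they are independent lines. They carried a doxycycline-inducible Cas9 with a pair of guide RNAs that invert the segment between Ptprk and Rspo3 on chromosome 10. The paper describes its P-Rspo3 organoids as treated with doxycycline, which induces the Cas9. These P-Rspo3 cultures were pools of edited cells kept by withdrawal of RSPO1, and not clones. WT libraries in ENR medium (EN with R-spondin) are given as the background: the 4 floxed lines with the same numbers as the Apc group (WT flox) and 1 dox-naive library of the P-Rspo3 design. Genotype, mouse strain alleles and the kind of mutation all differed between the groups and cannot be told apart. Exposure to doxycycline and Cas9 in the P-Rspo3 design cannot be told apart from these either. The libraries labelled LIPO and NAIVE_F carried labels that contradict each other and were left out.

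Cells set their sensitivity to Wnt ligands with the ubiquitin ligases RNF43 and ZNRF3, which send Frizzled receptors for degradation. An R-spondin, a secreted ligand of LGR4, LGR5 and LGR6, takes these ligases out of action. APC works further down, in the cytoplasmic complex with AXIN and GSK3 that marks beta-catenin for degradation, and without it beta-catenin enters the nucleus and joins TCF/LEF factors whether or not a Wnt ligand is bound. In the crypt this pathway keeps Lgr5 stem cells dividing and maintains Paneth cells, while cells that leave the crypt become absorptive enterocytes or mucus- and hormone-secreting cells.

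The altered genes were examined first in each library. Levels are given as FPKM (fragments scaled to the length of the transcript and to all mapped fragments, which allows genes of different length to be compared), in the order of lines 1, 2, 5 and 6 for Apc and 15d, 4d, M and F for P-Rspo3. Rspo3 (chr10:29452416-29535867, minus strand, GRCm38) was at 0.460, 0.668, 0.0760 and 0.229 FPKM in Apc organoids and at 11.5, 6.26, 11.5 and 10.1 FPKM in P-Rspo3 organoids. Every P-Rspo3 library lay above every Apc library, and the WT flox libraries held 0 to 0.0112 FPKM. The group means were 0.358 ± 0.260 and 9.86 ± 2.49 FPKM (SD, n = 4 each; two-sided exact permutation test, p = 0.0286, the smallest that 4 against 4 allows, and 0.0286 after Benjamini-Hochberg adjustment over 5 genes). Ptprk (chr10:28074820-28597397, plus strand), which encodes a receptor tyrosine phosphatase, was at 18.2, 20.4, 24.5 and 21.7 FPKM in Apc and 7.90, 13.3, 7.94 and 6.57 FPKM in P-Rspo3 organoids. It was lower in each of the 4 P-Rspo3 libraries, by 1.98-fold between groups, short of the fold of 2 used for calls. It passed that fold with library size alone, with both limma fits and without line 1, 2 or 4d (log2 fold changes of 1.00 to 1.28). Apc itself was at 30.5, 28.8, 28.3 and 30.0 FPKM in the Apc-deleted lines and 20.4, 18.7, 12.8 and 17.3 FPKM in the P-Rspo3 lines. These values cover the whole gene and the deleted part cannot be read apart from the rest, so they do not check the deletion.

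The cultures were epithelial. The adhesion molecule Epcam was at 347, 374, 389 and 367 FPKM in Apc and 359, 319, 356 and 261 FPKM in P-Rspo3 organoids, and the groups overlapped. Col1a1, Col1a2, Col3a1, Des and Acta2, which mark fibroblasts and muscle, and Ptprc, which marks leukocytes, did not pass the filter on low values and stayed under 0.11 FPKM in all 8 libraries. Of the 17 markers of other cell types, 7 were tested, 3 were higher in Apc, 3 were lower and the median log2 difference was 0.63. Their summed level ran from 18.9 to 256 FPKM in Apc and from 3.26 to 4.77 FPKM in P-Rspo3 organoids. In Apc nearly all of it was Vim, an intermediate filament protein, at 16.5, 43.9, 100.5 and 253 FPKM in Apc and 2.94, 1.73, 2.60 and 1.32 FPKM in P-Rspo3 libraries. Its log2 fold change of 5.29 was 4.32 without line 6. The endothelial cadherin Cdh5 was at 1.13, 1.61, 1.51 and 1.89 FPKM in Apc and had no count in P-Rspo3 or WT flox libraries. The part of other cells in the results was not tested. Library totals ran from 30635236 to 35528495 counts in Apc and from 29787422 to 32462680 counts in P-Rspo3 organoids, and no pair of libraries within a group agreed within sampling noise (20.5 or more in chi-square per gene).

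The contrast between these modes of RSPO1-independent growth was wide. Of 16456 genes tested with edgeR's quasi-likelihood test, 2209 were higher and 2183 were lower in Apc than in P-Rspo3 organoids, which is 13.4% and 13.3% of all genes tested. A gene was called when its Benjamini-Hochberg adjusted p was under 0.05 and its log2 fold change (Apc minus P-Rspo3) was above 1 or below -1. Expression of 8855 of the 16456 genes tested did not overlap between the groups, so a lack of overlap was common over all genes. Among these 8855 were 4154 of the 4392 called genes. At the other end, the 95% interval of the log2 fold change stayed between -1 and 1 for 8202 genes (49.8%). The median log2 fold change over all genes was 0.00066, and 50.3% of the calls were higher. That share was 61.8% when libraries were scaled by their totals alone and 61.2% with limma on log2(FPKM + 0.1), scalings that moved the median of all genes by 0.26 and 0.25. The genes called lower made up 19.5% to 26.3% of the counts of a P-Rspo3 library and 5.65% to 5.97% of an Apc library. The genes called higher held 6.97% to 8.03% of the counts in Apc and 1.49% to 1.98% in P-Rspo3 libraries. These are bulk RNA values, in which fewer cells of a type and less RNA per cell cannot be told apart.

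**Figure D1:**
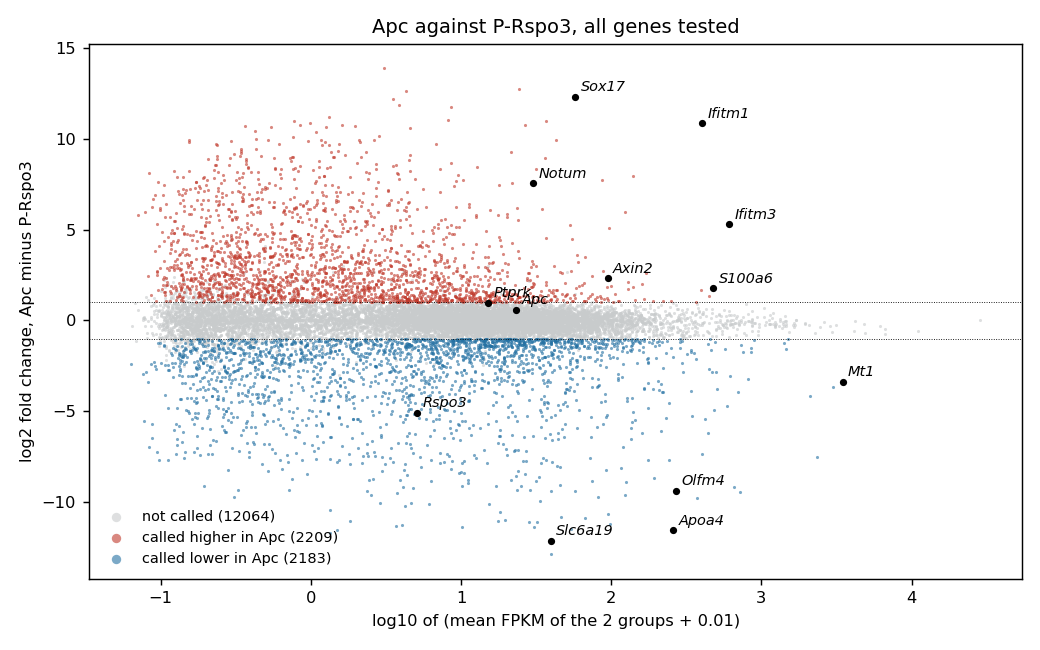
Log2 fold change (Apc minus P-Rspo3) of each of the 16456 genes tested against log10 of the mean FPKM of both groups plus 0.01, with genes called higher in Apc in red, genes called lower in blue, and some genes of the text in black with their names. The 2209 higher and the 2183 lower genes lie outside the dotted lines at 1 and -1, and Ptprk and Apc lie between them.

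The first group is the R-spondins with their receptors and the ligases they remove. Of 8 members tested, 4 were higher and 1 was lower in Apc, with a median log2 fold change of 1.27. The lower one was Rspo3 (log2 fold change -5.09, SE 0.51, adjusted p = 3.1e-05), the ligand that the fusion supplies. Rspo1, Rspo2, Rspo4 and Lgr6 were under 0.11 FPKM in every one of the 8 libraries and were not tested. Lgr5, the receptor that marks crypt stem cells, was at 76.8, 103, 122 and 96.9 FPKM in Apc and 32.3, 16.9, 27.7 and 12.1 FPKM in P-Rspo3 organoids. All 4 Apc libraries were above all 4 P-Rspo3 libraries (log2 fold change 1.89, SE 0.29, adjusted p = 0.00042), and the WT flox libraries at 19.7 to 38.05 FPKM overlapped with P-Rspo3. Rnf43, one of the ligases, was at 132, 116, 123 and 142 FPKM in Apc and 26.6, 15.4, 19.4 and 21.5 FPKM in P-Rspo3 organoids. It was thus 5.51-fold higher in Apc (log2 fold change 2.46, SE 0.13, adjusted p = 6.4e-07), with no overlap. Its relative Znrf3 followed, at 14.0 ± 2.51 against 3.68 ± 0.357 FPKM (log2 fold change 1.68, SE 0.12, adjusted p = 4.8e-06). Sdc2, a heparan sulphate proteoglycan, was at 5.15, 8.79, 5.49 and 8.78 FPKM in Apc against 5 counts in all over the 4 P-Rspo3 libraries, a count ratio of 398-fold (counting interval 170.4 to 1228) that covers counting error only. Lgr4, the receptor found throughout the crypt, was at 69.4, 64.9, 66.8 and 63.8 FPKM in Apc and 31.8, 31.3, 29.7 and 27.1 FPKM in P-Rspo3 organoids. The groups were clearly apart, yet the difference (log2 fold change 0.87, SE 0.06, adjusted p = 3.5e-06) was short of the fold of 2.

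Genes that the pathway itself switches on were higher in Apc almost throughout. Of 25 tested Wnt feedback and target genes, 21 were higher, 0 were lower and 4 were not called, with a median log2 fold change of 2.24 against 0.00066 over all genes. Nkd2 and Lgr6 were too low to be tested. Axin2, which rebuilds the destruction complex and is widely used as a readout of the pathway, was at 148, 167, 156 and 173 FPKM in Apc and 35.2, 22.6, 27.9 and 27.6 FPKM in P-Rspo3 organoids. The P-Rspo3 values lay within the WT range (24.7 to 51.6 FPKM in WT flox and 28.9 FPKM in the dox-naive library) apart from the lowest, while each Apc library was far above it (log2 fold change 2.32, SE 0.13, adjusted p = 1.3e-06; exact permutation test of the FPKM difference, p = 0.0286). Notum, a secreted enzyme that inactivates Wnt ligands, was at 24.96, 62.3, 60.7 and 93.0 FPKM in Apc and 0.207, 0.201, 0.178 and 0.404 FPKM in P-Rspo3 organoids. Line 1 was the lowest of the Apc lines and still far above all P-Rspo3 libraries (log2 fold change 7.57, SE 0.47, adjusted p = 1.9e-06). Nkd1, an intracellular inhibitor of Dishevelled, was at 16.5, 39.0, 53.6 and 62.7 FPKM in Apc and 0.0437, 0.0510, 0.0229 and 0.112 FPKM in P-Rspo3 organoids. This was the largest fitted change of the list among genes with more than 3 counts in a P-Rspo3 library (log2 fold change 9.29, SE 0.58, adjusted p = 1.9e-06). Tnfrsf19, a receptor of the crypt base, rose from 0.0334 to 0.232 to 44.0 to 73.5 FPKM (log2 fold change 8.38, SE 0.40, adjusted p = 4.5e-07). Apcdd1, an inhibitor at the membrane, and Wif1, a secreted inhibitor, had log2 fold changes of 5.80 and 6.18, and Prox1, a transcription factor, of 6.18. The Dkk family genes Dkk2 and Dkk3 had 0 counts and 1 count over all P-Rspo3 libraries. Dkk2 was at least 19.4-fold higher in Apc against the limit of 3 counts per library, at 0.228 to 1.10 FPKM, and Dkk3 was at 0.276, 0.211, 3.09 and 6.84 FPKM in Apc, so its lines 5 and 6 were over 10 times its lines 1 and 2. Leaving out 1 library moved the fitted fold by over 1.5 times, with the call kept, for Apcdd1 (7.04 without line 15d), Wif1 (5.17 without line 6), Dkk2 (8.12 without line 1) and Dkk3 (8.53 without line 6 and 11.40 without line 15d).

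Not every target moved that far. Ccnd1, a cyclin of the G1 phase, was 3.60-fold, Cd44, a hyaluronan receptor, 3.75-fold, Myc 2.07-fold and Sox9, a transcription factor of the crypt base, 2.03-fold higher in Apc, each with no overlap between groups. Calls that lay at the fold of 2 were lost without 1 library for Myc (0.98 without line 1 and 0.99 without line F) and Sox9 (0.92 to 0.98 without any 1 of lines 5, 4d and M). Ephb2 and Ephb3, receptors that sort cells along the crypt, were apart between the groups but under the fold of 2, at log2 fold changes of 0.72 (adjusted p = 0.00019) and 0.95 (adjusted p = 2.2e-05). Ccnd2, at 94.8 to 119 FPKM in Apc and 65.8 to 96.8 FPKM in P-Rspo3, overlapped and was not called (log2 fold change 0.19, SE 0.11, adjusted p = 0.19). In the plot of Wnt pathway levels by library, P-Rspo3 points overlap those of WT flox for Axin2 and Ascl2 and lie below them for Sp5, Nkd1, Tnfrsf19 and Sdc2.

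**Figure D2:**
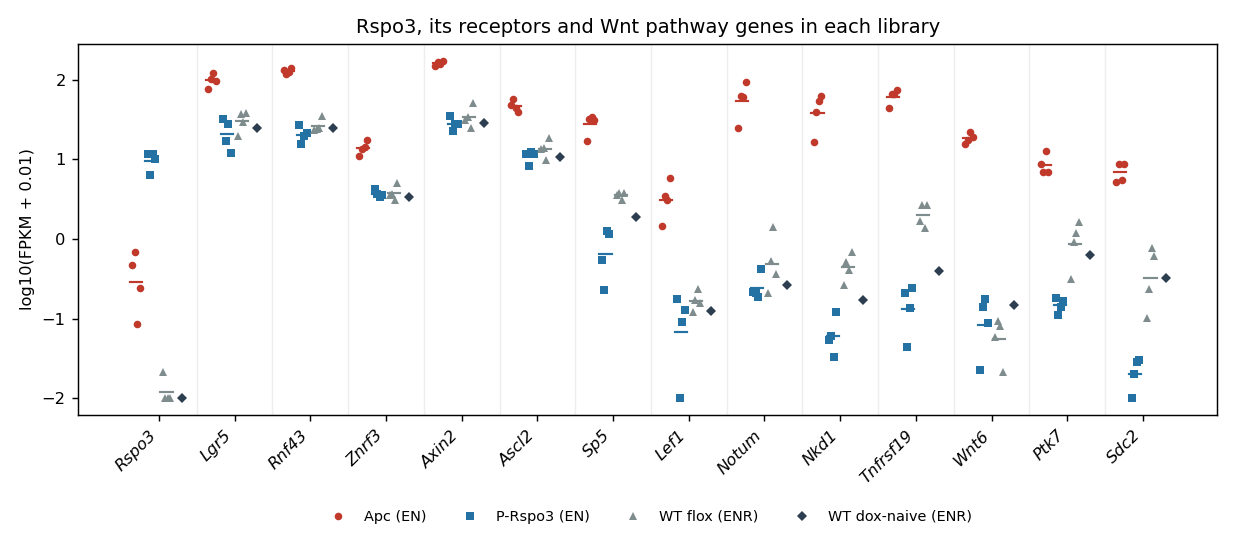
Log10 of FPKM plus 0.01 for Rspo3, R-spondin receptors and Wnt pathway genes, 1 point per library and a bar at the mean of the log values, for Apc and P-Rspo3 organoids in EN and WT organoids in ENR (4 floxed lines and 1 dox-naive library). Axin2 is at 148 to 173 FPKM in Apc and at 22.6 to 35.2 FPKM in P-Rspo3, and Rspo3 is the gene shown that is higher in P-Rspo3.

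Sequence before the start site was looked at for the Wnt list, since TCF/LEF factors bind the core CTTTG followed by AA, AT, TA or TT. RefSeq promoter windows (GRCm38.p6, the 250 bases before the start) were found for 15 of the 25 tested members. The core was present on either strand in 3 of the 15, against 16.8% of 27025 genes and 14.8% of 32851 windows, so the list was close to the background. The 3 windows that held a match are shown, with matches to the core in capitals, 5′ to 3′ on the strand of the gene. Lef1 lies at chr3:131156044-131156293 (plus strand, 1 of its 4 windows, match at -147), Sp5 at chr2:70474673-70474922 (plus strand, matches at -222 and -104) and Tnfrsf19 at chr14:61037988-61038237 (minus strand).
Lef1: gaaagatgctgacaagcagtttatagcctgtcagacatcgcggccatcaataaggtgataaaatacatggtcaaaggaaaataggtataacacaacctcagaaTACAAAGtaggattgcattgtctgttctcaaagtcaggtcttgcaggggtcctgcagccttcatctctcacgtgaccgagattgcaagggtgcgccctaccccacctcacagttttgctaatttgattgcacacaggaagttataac
Sp5: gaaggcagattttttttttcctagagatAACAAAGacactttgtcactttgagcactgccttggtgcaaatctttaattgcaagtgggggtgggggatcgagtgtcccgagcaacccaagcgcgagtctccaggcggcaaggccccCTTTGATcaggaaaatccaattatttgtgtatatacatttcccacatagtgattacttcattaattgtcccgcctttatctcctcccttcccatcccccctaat
Tnfrsf19: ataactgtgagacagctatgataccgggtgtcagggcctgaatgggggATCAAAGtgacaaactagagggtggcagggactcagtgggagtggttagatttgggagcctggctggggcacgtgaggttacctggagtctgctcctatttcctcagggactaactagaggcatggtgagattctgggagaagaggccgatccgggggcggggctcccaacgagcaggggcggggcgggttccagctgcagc
Lef1, itself a partner of beta-catenin, was at 1.42, 3.43, 3.06 and 5.83 FPKM in Apc and 0.165, 0, 0.0796 and 0.117 FPKM in P-Rspo3 organoids (log2 fold change 4.95, SE 0.69, adjusted p = 0.00024). Sp5, a zinc finger factor and direct Wnt target, was at 16.8, 31.9, 34.2 and 31.4 FPKM in Apc and 0.534, 0.217, 1.25 and 1.15 FPKM in P-Rspo3 organoids (log2 fold change 4.92, SE 0.49, adjusted p = 2.9e-05). For Sp5 the P-Rspo3 libraries were also below WT flox (3.03 to 3.80 FPKM), and for Tnfrsf19 likewise (1.37 to 2.68 FPKM in WT flox). A match is a description of the letters and does not show binding.

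Wnt ligands, their secretion machinery and the receptors were mixed. Of 21 tested, 10 were higher and 2 were lower in Apc, with a median log2 fold change of 0.90. Wnt6, a ligand, was at 15.7, 17.4, 21.8 and 18.8 FPKM in Apc and 0.0122, 0.130, 0.166 and 0.0777 FPKM in P-Rspo3 organoids (log2 fold change 7.71, SE 0.26, adjusted p = 1.0e-07), and it was near 0 in WT as well. Wnt10a had 2 counts over the P-Rspo3 libraries and 0.312 to 1.38 FPKM in Apc, a count ratio of 127-fold (counting interval 34.8 to 1052). Wnt3, the ligand that Paneth cells make, was at 1.52, 3.25, 3.75 and 1.07 FPKM in Apc and 3.38, 1.62, 1.77 and 2.04 FPKM in P-Rspo3, with full overlap (log2 fold change -0.13, SE 0.40, adjusted p = 0.81). The fitted log2 fold change of Wnt10a was 9.18 without line 15d. Wls, which carries Wnt ligands to the cell surface, was 2.72-fold higher in Apc, and Porcn, which attaches their lipid, was not called (log2 fold change 0.85, SE 0.31, adjusted p = 0.04). Among the Frizzled receptors the direction split. Fzd5 was at 7.66, 6.14, 5.55 and 5.50 FPKM in Apc and 23.6, 28.6, 21.96 and 21.6 FPKM in P-Rspo3 organoids (log2 fold change -2.23, SE 0.12, adjusted p = 1.1e-06), and Fzd4 fell as well (log2 fold change -1.87, SE 0.19, adjusted p = 4.0e-05). Fzd6 rose, from 1.97 to 2.16 FPKM in P-Rspo3 to 10.7 to 13.3 FPKM in Apc (log2 fold change 2.24, SE 0.09, adjusted p = 1.8e-07), as did Fzd1, Fzd3, Fzd7 and Fzd8 with log2 fold changes of 2.48, 2.55, 1.06 and 2.07. Ptk7, a co-receptor without kinase activity, was 53.5-fold higher in Apc and Sfrp5, a secreted antagonist, was 36.3-fold higher, with Sfrp5 at 1.45, 0.159, 11.2 and 5.08 FPKM in the Apc lines. Without 1 library the fits gave Fzd3 (3.24 without line 4d) and Sfrp5 (4.18 without line 5) with the call kept, and the call was lost for Fzd7 (0.99 without line F). Of the co-receptors, Lrp6 was at 13.1 to 13.8 FPKM in Apc and 11.6 to 13.6 FPKM in P-Rspo3, and neither Lrp6 nor Lrp5 was called (-0.18 and 0.35 on the log2 scale).

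Of 20 genes of the destruction complex and its nuclear partners, 6 were higher (30%, beside 13.4% of all genes) and 0 were lower. The median log2 fold change was 0.38. Ctnnb1, which encodes beta-catenin, was at 418, 436, 480.5 and 465 FPKM in Apc and 309, 282, 284 and 282 FPKM in P-Rspo3 organoids. The groups did not overlap, but the difference was 1.27-fold (log2 fold change 0.35, SE 0.08, adjusted p = 0.0034). The 6 higher genes were Axin2, Lef1, Tcf7, Tcf7l1, the co-repressor Tle3 and the APC-binding scaffold Amer1. Tcf7l1 was 20.2-fold higher at a low level (0.844 to 1.80 FPKM), Tcf7 was 4.73-fold higher, and Tle3 and Amer1 were 2.48-fold and 2.003-fold higher. The call that lay at the fold of 2 was lost when 1 library was left out for Amer1 (0.93 to 0.99 without any 1 of lines 1, 5 and M). Tcf7l2, the main TCF of the intestine, was at 10.4 to 11.5 FPKM in Apc and 9.18 to 12.1 FPKM in P-Rspo3, and was not called.

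The markers of crypt stem cells did not move as a unit. Of 21 tested, 13 were higher and 2 were lower in Apc, with a median log2 fold change of 1.12. Ascl2, the transcription factor that specifies Lgr5 stem cells, was at 48.6, 57.6, 44.7 and 38.8 FPKM in Apc and 11.7, 8.28, 12.4 and 11.6 FPKM in P-Rspo3 organoids (log2 fold change 1.84, SE 0.16, adjusted p = 1.4e-05). Olfm4, a secreted glycoprotein used alongside Lgr5 to mark the same cells, was at 0.272, 0.835, 2.10 and 0.640 FPKM in Apc and 777, 475, 398 and 522 FPKM in P-Rspo3 organoids. It was 669.7-fold lower in Apc (log2 fold change -9.39, SE 0.61, adjusted p = 2.3e-06), and the P-Rspo3 libraries overlapped with WT flox (472 to 1146 FPKM). Lgr5 and Olfm4 thus went in opposite directions in the same 8 libraries. Without line 5 the fall of Olfm4 was larger still (-10.14). Aqp4, a water channel, was the other member that fell (log2 fold change -1.70, SE 0.28, adjusted p = 0.00068). Igfbp4, a binding protein of insulin-like growth factors, was at 75.6, 79.7, 125 and 159 FPKM in Apc and 3.26, 0.537, 19.4 and 9.12 FPKM in P-Rspo3 organoids. The P-Rspo3 lines differed among themselves and all were below WT flox (26.7 to 41.6 FPKM), with line 4d lowest and line M highest (log2 fold change 3.59, SE 0.83, adjusted p = 0.0047, or 4.44 without line M). Smoc2, Lrig1 and Mex3a were 2.79-fold, 2.80-fold and 5.08-fold higher in Apc. Hopx and Bmi1, used as markers of reserve cells, were not called, with log2 fold changes of 0.83 and 0.04, nor was the transporter Slc12a2 (137 to 172 FPKM in Apc, 129 to 181 FPKM in P-Rspo3).

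Genes of the fetal and regenerating epithelium showed one of the larger list medians in the higher direction. Of 21 tested, 17 were higher, 1 was lower and the median log2 fold change was 3.29. Ly6a (Sca-1), a surface antigen of the fetal and injured gut, was at 254, 204, 254 and 406 FPKM in Apc and 1.45, 0.846, 0.584 and 0.575 FPKM in P-Rspo3 organoids. Each Apc library was over 100 times each P-Rspo3 library (log2 fold change 7.96, SE 0.31, adjusted p = 1.9e-07). Anxa1, a phospholipid-binding protein, was at 293, 162, 244 and 282 FPKM in Apc and 6.63, 2.05, 1.74 and 1.12 FPKM in P-Rspo3 organoids. Line 15d was the highest of the P-Rspo3 libraries, and the groups were far apart (log2 fold change 5.95, SE 0.38, adjusted p = 2.3e-06). Msln (mesothelin) was 982-fold higher (log2 fold change 9.94, SE 0.40, adjusted p = 2.0e-07), at 43.7 to 114 FPKM in Apc. Il33, an alarmin, was 218-fold higher, and Clu (clusterin), which marks revival stem cells, was at 35.5, 15.01, 48.4 and 69.3 FPKM in Apc against 1.78, 1.59, 0.746 and 3.42 FPKM in P-Rspo3 organoids (log2 fold change 4.27, SE 0.54, adjusted p = 0.00014). The member that went the other way was Areg, a ligand of the EGF receptor, at 26.8, 16.6, 28.7 and 46.6 FPKM in Apc and 43.7, 35.97, 34.2 and 94.9 FPKM in P-Rspo3, where the groups overlapped in FPKM (log2 fold change -1.10, SE 0.40, adjusted p = 0.041). A call lost without 1 library was that of Areg (-1.09 to -0.59 without any 1 of lines 1, 2, 5 and F, adjusted p 0.085 to 0.12). Anxa2, at 169 to 346 FPKM in Apc and 247 to 293 FPKM in P-Rspo3, was not called (log2 fold change -0.43, SE 0.19, adjusted p = 0.079). Vim was higher in Apc as well, as given above, and the part of Vim-expressing cells in these rises was not tested.

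The Hippo list holds targets together with coactivators and DNA-binding partners of the pathway, and shares Areg, Ereg, Ccn1, Ccn2 and Msln with the fetal list. It gave 12 higher and 2 lower of 16 tested, with a median log2 fold change of 2.80. Yap1, the coactivator held in check by the pathway, was at 38.1 to 41.7 FPKM in Apc and 20.2 to 24.4 FPKM in P-Rspo3 and was not called (log2 fold change 0.53, SE 0.06, adjusted p = 6.9e-05). Its relative Wwtr1 (TAZ) was at 8.996, 8.40, 8.21 and 9.82 FPKM in Apc and 0.00632, 0.0207, 0.228 and 0.0619 FPKM in P-Rspo3 organoids. The Apc libraries were close to each other and no P-Rspo3 library reached 0.3 FPKM (log2 fold change 6.55, SE 0.59, adjusted p = 1.7e-05, or 7.91 without line M). The DNA-binding partners Tead1, Tead2 and Tead4 were 2.47-fold, 7.71-fold and 9.31-fold higher. Ccn2 (CTGF), a matricellular target, was 82.9-fold higher and Ccn1 (CYR61) 6.28-fold higher. Birc3, an inhibitor of apoptosis, was lower in Apc (log2 fold change -1.30, SE 0.15, adjusted p = 6.6e-05).

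**Figure D3:**
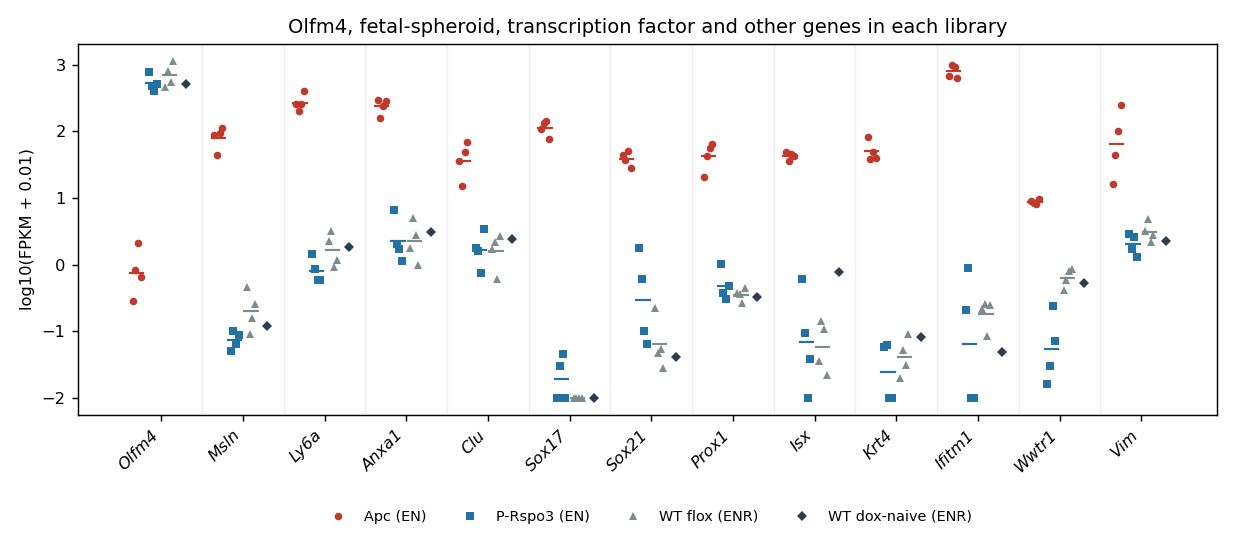
Log10 of FPKM plus 0.01 for Olfm4 and for fetal, transcription factor and other genes, 1 point per library and a bar at the mean of the log values, for Apc and P-Rspo3 organoids in EN and WT organoids in ENR (4 floxed lines and 1 dox-naive library). Ly6a is at 204 to 406 FPKM in Apc and at 0.575 to 1.45 FPKM in P-Rspo3 organoids, and the Apc points are above all other points for each gene shown except Olfm4, where they are below.

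Endoderm and developmental transcription factors moved in both directions, in a list that also holds the RNA-binding Igf2bp genes and Hmga2. Of 22 tested, 8 were higher and 5 were lower, with a median log2 fold change of 0.36. The median was 0.10 without line 15d, 0.58 without line 4d and 0.76 without line M, and the lower members were 3 without line 5 or M and with either limma fit. Sox17 (chr1:4490931-4497354, minus strand), the factor that specifies definitive endoderm, was at 107, 133, 143 and 77.9 FPKM in Apc and 0, 0.0198, 0.0362 and 0 FPKM in P-Rspo3 organoids, and at 0 in all WT flox libraries. The 4 P-Rspo3 libraries held 4 counts between them, so the count ratio was 5673-fold (counting interval 2216 to 20823) (exact permutation test of the FPKM difference, p = 0.0286). Isx, an intestinal homeobox factor, was at 48.6, 36.1, 46.1 and 42.2 FPKM in Apc and 0.612, 0.0842, 0 and 0.0281 FPKM in P-Rspo3 organoids (log2 fold change 7.55, SE 0.65, adjusted p = 1.3e-05). Sox21 was 51.8-fold higher in Apc, and line 15d held the highest of its P-Rspo3 values (1.75, 0.612, 0.0911 and 0.0552 FPKM). Foxa1, a pioneer factor, Sox4 and Hmga2, a chromatin protein of embryonic tissue, were 2.31-fold, 3.21-fold and 2.81-fold higher. Gata6, a factor of the small intestine, fell by 1.47 on the log2 scale (10.1, 13.3, 16.5 and 12.97 FPKM in Apc, 27.8, 33.2, 31.2 and 30.5 FPKM in P-Rspo3), and Onecut2 fell by 2.27. Pdx1, a factor of the duodenum, was at 0.487, 0.688, 0.395 and 0.0213 FPKM in Apc and 0.436, 2.11, 10.1 and 1.07 FPKM in P-Rspo3 organoids. Line M alone carried most of the P-Rspo3 level, and the groups overlapped in FPKM (log2 fold change -3.35, SE 1.07, adjusted p = 0.023). A call lost without 1 library was that of Pdx1 (-3.35 without line 5, adjusted p 0.057 and -1.85 without line M, adjusted p 0.1). Leaving out a library moved the fit by over 1.5 times, with the call kept, for Sox17 (13.68 without line 4d), Isx (9.86 without line 15d) and Sox21 (6.94 without line 15d). Gata4 was not called (-0.39 on the log2 scale), and Pitx1 was at 7.95, 7.42, 6.11 and 7.17 FPKM in Apc and 0, 6.35, 6.87 and 4.71 FPKM in P-Rspo3 organoids, with only line 15d at 0, and was not called (log2 fold change 0.42, SE 0.88, adjusted p = 0.72).

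Of 14 genes of epithelial identity, 5 (35.7%) were lower and 1 was higher, with a median log2 fold change of -0.45. With library size alone or either limma fit 3 were lower and the median was -0.19 to -0.21. Cdx2, the homeobox factor that sets intestinal fate, was at 86.1, 96.0, 77.6 and 84.5 FPKM in Apc and 88.3, 78.3, 75.7 and 62.6 FPKM in P-Rspo3 organoids, and the groups overlapped. Its relative Cdx1 was at 6.12, 3.77, 4.31 and 3.55 FPKM in Apc and 75.6, 69.99, 64.2 and 59.6 FPKM in P-Rspo3 organoids. That was 17.9-fold lower in Apc (log2 fold change -4.16, SE 0.17, adjusted p = 2.0e-07). Hnf4g, a nuclear receptor of enterocytes, was 12.5-fold lower (log2 fold change -3.65, SE 0.17, adjusted p = 3.9e-07) and its relative Hnf4a 2.28-fold lower (log2 fold change -1.19, SE 0.07, adjusted p = 1.9e-06). The microvillus protein Vil1 was 2.30-fold lower. Among keratins, Krt18 was 2.01-fold higher, at the fold of 2. Its call was lost when 1 library was left out, with Krt18 (0.92 to 1.00 without any 1 of lines 1, 5, 4d and F). Krt19 and Krt8 were not called (-0.93 and -0.41 on the log2 scale). The tight junction gene Cldn7 was at 561 to 666 FPKM in Apc and 672 to 815 FPKM in P-Rspo3, and was not called.

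Genes of mature enterocytes were lower in Apc. Of 23 brush border and hydrolase genes tested, 21 were lower, 0 were higher and the median log2 fold change was -2.44. Alpi, the alkaline phosphatase of the brush border, was at 1.18, 1.72, 0.416 and 0.635 FPKM in Apc and 62.0, 261, 403 and 204 FPKM in P-Rspo3 organoids. Every P-Rspo3 library exceeded every Apc library, though the P-Rspo3 values ran from 62.0 in line 15d to 403 in line M (log2 fold change -8.12, SE 0.72, adjusted p = 1.6e-05). Sis (sucrase-isomaltase) was 875-fold lower, Ggt1 (a glutathione-cleaving enzyme) 1890.0-fold lower and Enpep (an aminopeptidase) 551-fold lower. Structural genes of the microvillus fell less, with Espn, Ush1c and Myo1a at log2 fold changes of -1.23, -1.19 and -2.10. The 2 genes not called included the scaffold Pdzk1 (log2 fold change -0.65, SE 0.55, adjusted p = 0.34).

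Nutrient transport went the same way, with 16 lower and 0 higher of 21 tested and a median log2 fold change of -5.33. Slc6a19, the main transporter of neutral amino acids, was at 0.0364, 0.185, 0.0235 and 0.0293 FPKM in Apc and 47.0, 95.7, 63.4 and 109 FPKM in P-Rspo3 organoids. This was the largest fitted fall of the list, 4575-fold (log2 fold change -12.16, SE 0.48, adjusted p = 1.9e-07). Slc2a2 (GLUT2) and Slc2a5 (the fructose transporter GLUT5) were 647-fold and 86.5-fold lower, and Slc5a1 (the sodium-glucose transporter SGLT1), the most abundant of the list, fell from 172 to 345 FPKM in P-Rspo3 to 11.7 to 17.0 FPKM in Apc. The bile acid transporter subunit Slc51b had 1 count over the Apc libraries, against 9.70 to 18.8 FPKM in P-Rspo3 (count ratio 711-fold (counting interval 127 to 28118), fitted change -10.28 without line 6). The 5 genes not called included the drug efflux pump Abcb1a (-0.79 on the log2 scale) and the sodium-proton exchanger Slc9a3 (0.54), both with overlapping groups.

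Lipid absorption was lower as well, in 20 of 22 genes with 0 higher and a median of -3.88. Apoa4, an apolipoprotein of chylomicrons, was at 0.0920, 0.493, 0.194 and 0.148 FPKM in Apc and 317, 508, 687 and 559.5 FPKM in P-Rspo3 organoids (log2 fold change -11.56, SE 0.45, adjusted p = 1.9e-07). Fabp1, a fatty acid binding protein, was at 0.939, 4.02, 1.70 and 3.29 FPKM in Apc and 554, 1191, 1699 and 2303 FPKM in P-Rspo3 organoids (log2 fold change -9.44, SE 0.66, adjusted p = 3.6e-06). All Apc libraries were under 5 FPKM for these genes. Apoa1 and Mttp, which loads lipid onto apolipoprotein B, were 796-fold and 91.4-fold lower. Apoc3 had 8 counts over the Apc libraries (count ratio 1772-fold (counting interval 899 to 4105) in favour of P-Rspo3), and the fatty acid receptor Cd36 had 6 (count ratio 1155-fold (counting interval 530.3 to 3149)). Plin2, of lipid droplets, was not called (-0.60 on the log2 scale). The fitted change of Cd36 was -9.44 without line F, its highest P-Rspo3 library.

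Of 27 genes of xenobiotic and retinoid metabolism, 26 were lower and 1 was higher, with a median log2 fold change of -5.42, the lowest of the lists. Adh1, an alcohol dehydrogenase that also oxidises retinol, was at 3.37, 2.39, 3.30 and 2.43 FPKM in Apc and 497, 1446, 1692 and 1623 FPKM in P-Rspo3 organoids (log2 fold change -9.19, SE 0.48, adjusted p = 7.1e-07). Line 15d was the lowest of the P-Rspo3 libraries and still over 100 times the highest Apc library. Rbp2, the retinol binding protein of enterocytes, was 418-fold lower, and the carboxylesterase Ces1f and the cytochrome Cyp3a25 were 870.3-fold and 448-fold lower. The cytochrome, carboxylesterase and glutathione transferase genes belong to families of near-identical copies, and reads may be split among copies. The member that was higher was Cyp27a1, which hydroxylates sterols, at 3.13, 1.03, 6.77 and 8.30 FPKM in Apc and 2.31, 0.404, 0.942 and 1.18 FPKM in P-Rspo3 organoids (log2 fold change 1.64, SE 0.58, adjusted p = 0.037), with overlap through line 2. Its call was lost when 1 library was left out, with Cyp27a1 (1.31 to 1.80 without any 1 of lines 5, 6, 4d, F and M, adjusted p 0.053 to 0.1). Cyp3a25 was at -9.79 without line 2.

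Secretory lineages were lower in Apc, though not to the same extent. All 13 tested goblet cell genes were lower, with a median log2 fold change of -3.30, and their summed level ran from 270 to 616 FPKM in Apc against 1646 to 3413 FPKM in P-Rspo3 organoids. Muc2, the main mucin of goblet cells, was at 0.592, 0.911, 0.392 and 0.677 FPKM in Apc and 37.4, 32.5, 29.7 and 17.9 FPKM in P-Rspo3 organoids (log2 fold change -5.70, SE 0.33, adjusted p = 1.3e-06). The factors Spdef, for goblet maturation, and Atoh1, for all secretory cells, were 8.46-fold and 3.17-fold lower. Zg16, a mucus protein, had 8 counts over the Apc libraries (count ratio 585-fold (counting interval 297 to 1357)).

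Paneth cell genes gave 11 lower and 2 higher of 17 tested, with a median of -2.59. Lyz1 (lysozyme) was at 374, 700.3, 373 and 148 FPKM in Apc and 1386, 820.0, 1091 and 1176 FPKM in P-Rspo3 organoids. The highest Apc library was line 2, below the lowest P-Rspo3 library, line 4d (log2 fold change -1.74, SE 0.40, adjusted p = 0.0044). The defensins Defa24 and Defa30 were 18.0-fold and 26.0-fold lower (Defa24 at -4.83 without line 2). Defensin genes are near-identical copies, and their separate values are uncertain. Mmp7, the protease that activates defensins, went the other way, at 88.4, 198, 187 and 183 FPKM in Apc and 48.7, 21.4, 24.3 and 51.0 FPKM in P-Rspo3 organoids (log2 fold change 1.91, SE 0.35, adjusted p = 0.0012). Reg3g, an antibacterial lectin, was also higher (log2 fold change 1.48, SE 0.51, adjusted p = 0.033), with overlapping FPKM (53.7 to 199.8 in Apc and 16.8 to 74.0 in P-Rspo3), and its change was 2.16 without line 15d. Its call was lost in most fits without 1 library, with Reg3g (1.08 to 1.53 without any 1 of lines 2, 5, 6, 4d, F and M, adjusted p 0.053 to 0.098). Summed over the list, Paneth genes were at 772 to 1880.2 FPKM in Apc and 4173 to 10556 FPKM in P-Rspo3 organoids.

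Of 21 enteroendocrine genes, 12 were lower and 0 were higher, with a median log2 fold change of -2.39. With a filter of at least 1 FPKM 7 were lower. Chgb, a granule protein shared by hormone-secreting cells, was at 7.52, 9.46, 6.77 and 5.12 FPKM in Apc and 51.9, 39.6, 50.0 and 35.0 FPKM in P-Rspo3 organoids (log2 fold change -2.86, SE 0.20, adjusted p = 3.8e-06). Hormone genes varied among the P-Rspo3 lines. Gip was at 94.4, 3.38, 61.6 and 119.7 FPKM in lines 15d, 4d, M and F and under 1 FPKM in all Apc libraries (log2 fold change -7.60, SE 1.12, adjusted p = 0.00034), and Gcg was lower in line 4d than in any Apc library (0.138 to 0.412 FPKM in Apc and 33.6, 0.0877, 3.56 and 14.6 FPKM in P-Rspo3, with a fitted change of -6.06, or -5.06 without line 15d). Sst had no count in any Apc library and 0.819 to 15.96 FPKM in P-Rspo3, at least 50.6-fold lower in Apc against the limit of 3 counts per library (fitted change -10.08, or -8.84 without line M). Neurog3, the factor that starts this lineage, was at 5.81, 9.95, 15.4 and 6.45 FPKM in Apc and 9.73, 7.22, 8.67 and 4.59 FPKM in P-Rspo3 organoids, with overlap (log2 fold change 0.06, SE 0.32, adjusted p = 0.9). Insm1, which acts after it, was not called either (-0.37 on the log2 scale). The sign for Neurog3 turned without line 5 (-0.27) or line F (-0.10).

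Tuft cell genes were low in both groups, with 6 (54.5%) lower and 2 (18.2%) higher of 11 tested and a median of -1.41. With a filter of at least 1 FPKM 3 were lower and the median was -0.43. The median was -0.69 with each group taken relative to its own WT. The summed level of the 14 listed genes went the other way, at 61.4 to 94.9 FPKM in Apc and 29.1 to 47.3 FPKM in P-Rspo3 organoids. Dclk1, a kinase that marks tuft cells, was at 0.0626, 0.0736, 0.0282 and 0.0440 FPKM in Apc and 1.06, 0.539, 0.436 and 0.923 FPKM in P-Rspo3 organoids (log2 fold change -4.07, SE 0.42, adjusted p = 3.8e-05). Rgs13 and Sh2d6 were 10.2-fold and 10.9-fold lower. Pou2f3, the factor of the lineage, overlapped (log2 fold change -0.43, SE 0.32, adjusted p = 0.28). Sox4 and Ptgs1 were the higher members, 3.21-fold and 2.75-fold, and Sox4, which other crypt cells also express, made up most of the summed level in Apc. For Alox5ap the deposited FPKM and counts did not rank the libraries alike: the FPKM in Apc line 5 was 8.35 against 0.117 or less in the other Apc lines, and no weight is put on it.

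**Figure D4:**
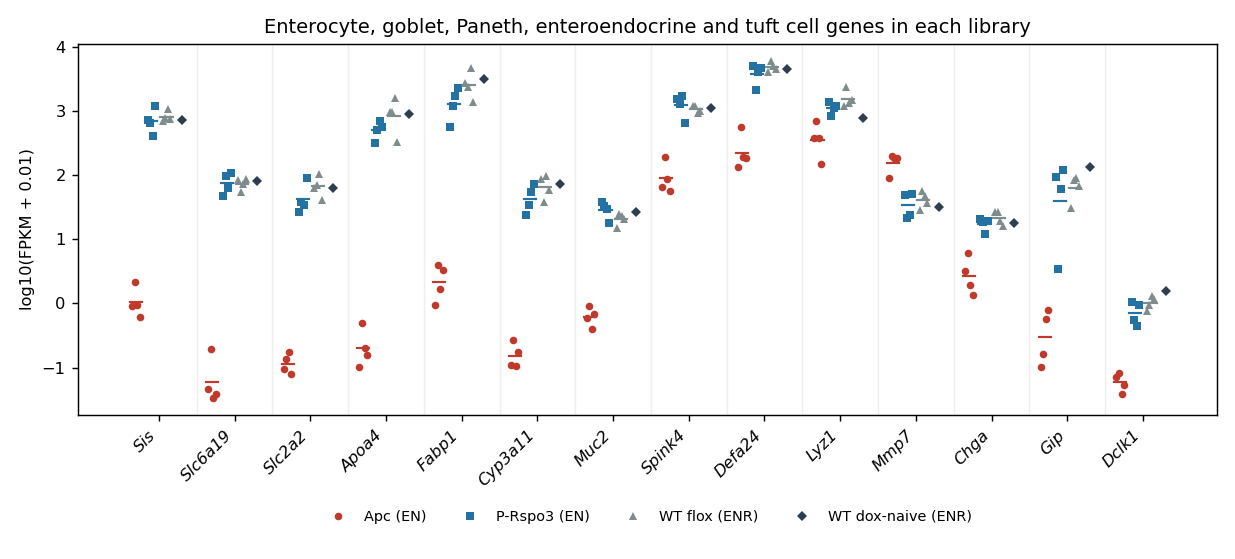
Log10 of FPKM plus 0.01 for enterocyte, goblet, Paneth, enteroendocrine and tuft cell genes, 1 point per library and a bar at the mean of the log values, for Apc and P-Rspo3 organoids in EN and WT organoids in ENR (4 floxed lines and 1 dox-naive library). Muc2 is at 0.392 to 0.911 FPKM in Apc and at 17.9 to 37.4 FPKM in P-Rspo3, and Mmp7 is the gene shown that is higher in Apc.

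Of 34 genes of the cell cycle, 6 (17.6%) were higher, beside 13.4% of all genes, and 1 was lower, with a median log2 fold change of 0.58. The higher ones numbered 13 with library size alone, and 14 and 12 with limma on log2(FPKM + 0.1) and log2(FPKM + 1). Pcna, the clamp of DNA polymerase, was at 189, 186, 176 and 172 FPKM in Apc and 109.7, 103, 116 and 96.7 FPKM in P-Rspo3 organoids. The groups did not overlap and the difference was 1.46-fold (log2 fold change 0.54, SE 0.07, adjusted p = 0.00017), under the fold for a call. Mcm2 and Mcm4, of the replicative helicase, passed it (2.24-fold and 2.21-fold), and Top2a and Cdk1 did not (0.61 and 0.52 on the log2 scale). The inhibitors at the Cdkn2 locus split. Cdkn2a was at 14.7, 11.5, 11.8 and 17.2 FPKM in Apc and 0.490, 0.176, 0.316 and 0.172 FPKM in P-Rspo3 organoids (log2 fold change 5.34, SE 0.31, adjusted p = 1.4e-06). Its neighbour Cdkn2b was at 5.01, 4.88, 4.40 and 6.87 FPKM in Apc and 28.2, 31.1, 28.7 and 36.7 FPKM in P-Rspo3 organoids (log2 fold change -2.81, SE 0.17, adjusted p = 1.7e-06). The WT flox libraries were on the P-Rspo3 side for both (0 to 0.177 and 15.8 to 34.3 FPKM).

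The MYC family split in the same manner. Myc was at 111, 98.6, 84.3 and 93.3 FPKM in Apc and 42.4, 37.5, 46.2 and 32.0 FPKM in P-Rspo3 organoids (log2 fold change 1.05, SE 0.11, adjusted p = 3.5e-05), and Mycl rose 4.29-fold (log2 fold change 2.10, SE 0.15, adjusted p = 3.6e-06). Mycn was at 0.0193, 0.0320, 0.0200 and 0.0457 FPKM in Apc and 3.73, 4.41, 2.60 and 1.97 FPKM in P-Rspo3 organoids, 124-fold lower in Apc (log2 fold change -6.95, SE 0.37, adjusted p = 7.8e-07). Of the 26 genes of ribosome biogenesis and the MYC network, 2 were higher and 2 were lower, with a median of 0.29. That is 7.69% in each direction, below the 13.4% and 13.3% of all genes. The higher ones were Myc and Mycl, and the lower ones were Mycn and Mxd1, an antagonist of MYC (-1.38 on the log2 scale). The nucleolar gene Npm1, at 1027 to 1150.3 FPKM in Apc and 523 to 767 FPKM in P-Rspo3, was not called (log2 fold change 0.49, SE 0.12, adjusted p = 0.0063), nor was Ldha (-0.33 on the log2 scale).

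Of 15 Notch pathway genes, 5 (33.3%) were higher and 4 (26.7%) were lower, beside 13.4% and 13.3% of all genes, with a median of 0.33. The receptors Notch2 and Notch3 were 2.70-fold and 7.45-fold higher, and the target genes Hes5 and Nrarp were 8.53-fold and 3.62-fold lower, as was the ligand Dll1 (log2 fold change -1.13, SE 0.19, adjusted p = 0.00075, a call lost at -0.99 without line 6). Hes5 was low, at 0.0966 to 0.214 FPKM in Apc and 0.653 to 1.05 FPKM in P-Rspo3. In the BMP and TGF-beta list, 9 of 17 (52.9%) were higher and 1 (5.88%) was lower, with a median of 1.07. Bmp8b was at 19.8, 12.6, 9.36 and 16.1 FPKM in Apc and 0.270, 0.297, 0.312 and 0.230 FPKM in P-Rspo3 organoids (log2 fold change 5.54, SE 0.26, adjusted p = 4.4e-07), and Bmp7 was 7.56-fold higher. The BMP target Id3 was at 48.9, 63.6, 26.1 and 91.4 FPKM in Apc and 7.57, 4.54, 8.60 and 2.37 FPKM in P-Rspo3 organoids, with line 5 the lowest of the Apc libraries and above all P-Rspo3 libraries (log2 fold change 3.01, SE 0.45, adjusted p = 0.00035). Tgfb2 had 2 counts over the P-Rspo3 libraries and 0.884 to 1.47 FPKM in Apc (count ratio 279.6-fold (counting interval 77.1 to 2313)). Smad6, an inhibitor of the pathway, was the lower member (log2 fold change -1.32, SE 0.28, adjusted p = 0.0032). Both media held Noggin, a BMP antagonist.

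Of 21 genes of the EGF receptor family and MAPK feedback, 6 (28.6%) were higher and 2 (9.52%) were lower, beside 13.4% and 13.3% of all genes. The median was 0.49, or 0.24 without line 6. Dusp4, a phosphatase of MAP kinases, was 3.91-fold higher and its relative Dusp5 7.07-fold lower (log2 fold change -2.82, SE 0.29, adjusted p = 4.0e-05). Fosl1, Etv5 and Spry1, targets of the pathway, were 6.11-fold, 2.73-fold and 2.35-fold higher, and Egfr was not called (7.43 to 11.2 FPKM in Apc, 4.57 to 6.41 FPKM in P-Rspo3).

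Cytoskeleton, adhesion and matrix genes gave 10 higher and 4 lower of 26 tested, with a median log2 fold change of 0.63. Cdh13 (T-cadherin) was at 14.5, 17.9, 20.9 and 15.5 FPKM in Apc and had 2 counts over the P-Rspo3 libraries, a count ratio of 4231-fold (counting interval 1171 to 34941). The matrix genes Efemp1 and Fn1 had 1 count each over the P-Rspo3 libraries, against 12.9 to 22.1 and 1.90 to 5.24 FPKM in Apc. The fitted changes of these genes depend on the library that holds those counts, with Cdh13 (14.29 without line 4d), Efemp1 (12.83 without line 4d) and Fn1 (12.52 without line 15d). Among claudins, Cldn4 was 6.67-fold higher (log2 fold change 2.74, SE 0.25, adjusted p = 2.0e-05) and the leaky-junction claudins Cldn15 and Cldn2 were 9.92-fold and 2.64-fold lower. Cdh17, the cadherin of the intestine, fell 2.13-fold, and Cdh1 (E-cadherin) was not called (log2 fold change 0.32, SE 0.09, adjusted p = 0.012). Krt7, a keratin of ductal epithelia, was at 241, 186, 246 and 231 FPKM in Apc and 70.3, 56.4, 48.5 and 43.5 FPKM in P-Rspo3 organoids (log2 fold change 1.82, SE 0.14, adjusted p = 6.4e-06).

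Of 21 genes of cholesterol and fatty acid synthesis, 0 were higher and 3 (14.3%) were lower, near the 13.3% of all genes, with a median of -0.18. The lower ones were 1 without line M and 2 without any 1 of lines 1, 2, 5, 6 and F. The lower ones included Me1 and Insig1, which supply NADPH and hold back sterol synthesis (-2.40 and -1.01 on the log2 scale). A call lost when 1 library was left out was that of Insig1 (-0.99 to -0.86 without any 1 of lines 1, 5 and M). In the interferon and antigen presentation list, 4 of 18 were higher and 4 were lower (22.2% each, beside 13.4% and 13.3% of all genes). The median of 0.33 fell to -0.02 without line 6 and 0.15 without line 4d. Ifitm1, a membrane protein, was at 672, 1008, 921 and 634 FPKM in Apc and 0.203, 0.875, 0 and 0 FPKM in P-Rspo3 organoids (log2 fold change 10.89, SE 0.44, adjusted p = 2.0e-07, or 11.67 without line 4d). Ifitm3 was at 1220.3, 1368, 979 and 1193 FPKM in Apc and 0, 24.4, 33.8 and 42.0 FPKM in P-Rspo3 organoids, listed at 0 in line 15d (log2 fold change 5.29, SE 0.97, adjusted p = 0.0013). The Ifitm genes are similar in sequence, and reads may be split among them. B2m, the light chain of class I molecules, was at 97.7, 131, 141 and 121 FPKM in Apc and 315, 297, 339 and 426 FPKM in P-Rspo3 organoids, lower in every Apc library (log2 fold change -1.79, SE 0.15, adjusted p = 1.3e-05), and Irf7 and Ifit1, which interferon induces, were 3.41-fold and 4.65-fold lower.

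**Figure D5:**
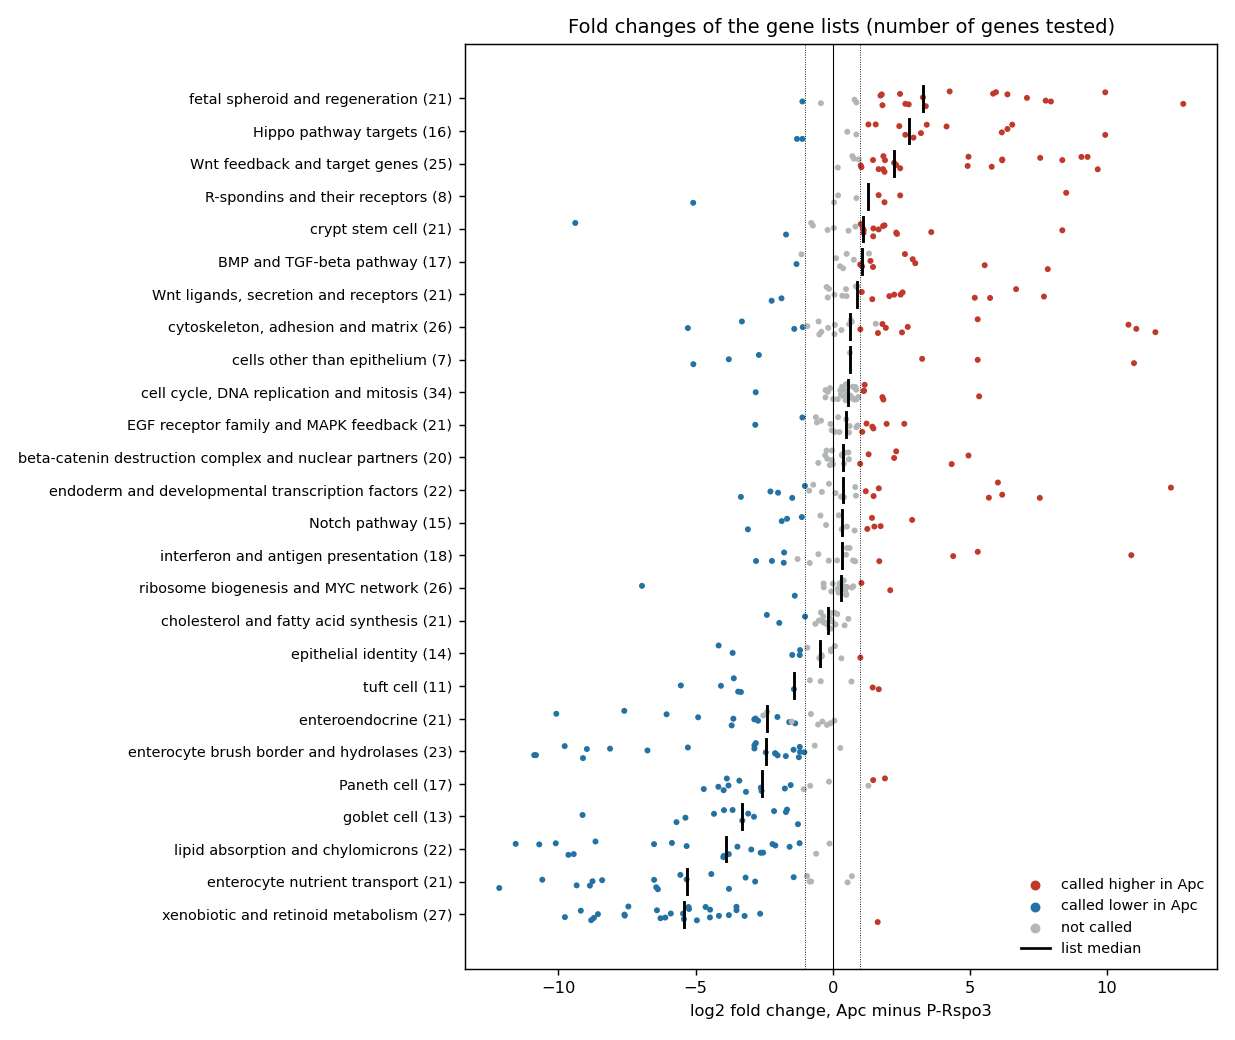
Log2 fold change (Apc minus P-Rspo3) of every tested member of each gene list, 1 point per gene, with the median of the list as a bar and dotted lines at 1 and -1. The medians run from -5.42 for xenobiotic and retinoid metabolism to 3.29 for fetal spheroid and regeneration genes.

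Outside the lists, genes were named by the size of their change where the higher group averaged 10 FPKM or more. In the higher direction these added Krt4, a keratin of stratified epithelia, at 83.4, 38.7, 49.5 and 40.0 FPKM in Apc and 0.0482, 0.0520, 0 and 0 FPKM in P-Rspo3 (log2 fold change 10.75, SE 0.52, adjusted p = 4.7e-07). They also added the kinase Stk26 (count ratio 925-fold (counting interval 396 to 2851)), Myl9, a myosin light chain of smooth muscle type (log2 fold change 8.68, SE 0.53, adjusted p = 1.9e-06), Ecscr, an endothelial surface protein (count ratio 373-fold (counting interval 189 to 864)), and CAAA01147332.1. In the lower direction they added Cfhr2, a complement factor H relative, at 0 to 0.0222 FPKM in Apc and 36.5 to 114 FPKM in P-Rspo3 (count ratio 9769-fold (counting interval 2704 to 80673)). G6pc, the last enzyme of glucose release, had 3 counts over the Apc libraries and 11.4, 13.5, 6.80 and 49.2 FPKM in P-Rspo3 (count ratio 3028-fold (counting interval 1036 to 14684)). Dmbt1, a mucosal scavenger protein, Ugt2b5, a glucuronosyltransferase, Scin, an actin-severing protein, and Btnl1, which supports intraepithelial lymphocytes, were 2356-fold, 2254-fold, 2241-fold and 2086-fold lower in Apc, and Rps13-ps1 completes the set. Without 1 library the fits gave Stk26 (10.55 without line M), Myl9 (10.30 without line M), G6pc (-12.29 without line 5 and -10.37 without line F), Scin (-11.88 without line 5 and -10.53 without line F) and Rps13-ps1 (-12.87 without line 5). In absolute terms the largest falls included the metallothionein genes Mt1 and Mt2. Mt1 was at 599, 824, 814 and 676 FPKM in Apc and 5014, 6081, 6429.8 and 7339.6 FPKM in P-Rspo3 organoids, and Mt2 was 12.8-fold lower. The largest absolute rises were in Ifitm3, Ifitm1 and S100a6, a calcium-binding protein at 836, 589, 758 and 885 FPKM in Apc and 237, 283, 136 and 91.1 FPKM in P-Rspo3 organoids (log2 fold change 1.79, SE 0.30, adjusted p = 0.0008).

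The groups came from lines with different alleles, so each was also taken relative to its own WT, with the P-Rspo3 side resting on the single dox-naive library. This fit uses the same 8 libraries again and is not independent of the first. Of the 2209 genes higher in Apc, 1846 (83.6%) differed by over 2-fold in the same direction after this correction and 1098 were called, and 15 differed by over 2-fold in the opposite direction with 0 called. Of the 2183 lower genes, 1892 (86.7%) kept their direction beyond 2-fold, 1496 were called and 12 were beyond 2-fold the other way with 0 called. The lower calls shared by both fits were 20 of 20 in the lipid list, 16 of 16 in the transport list, 25 of 26 in the xenobiotic list, 19 of 21 in the brush border list, 11 of 13 for goblet cells, 10 of 11 for Paneth cells and 8 of 12 for enteroendocrine cells. The higher calls shared were 14 of 21 in the Wnt feedback list, 12 of 17 in the fetal list, 11 of 12 in the Hippo list and 8 of 13 in the stem cell list. Fewer were shared for Wnt ligands and receptors (5 of 10), for the BMP list (4 of 9) and for developmental transcription factors (3 of 8). Single calls lost in this fit included Rspo3, at a log2 difference of -5.086 in the first fit and -6.748 here. Sox17 (12.336 and 12.328), Cdh5 (10.989 and 10.911), Dkk2 (9.072 and 8.994) and Wnt10a (6.689 and 6.675) were lost with differences that hardly moved. Fn1 was lost as well (10.787 and 7.85). These calls were lost on the adjusted p and not on the size of the difference. Rps13-ps1, a ribosomal protein pseudogene, was at 51.5 to 68.1 FPKM in P-Rspo3 and 50.1 FPKM in the dox-naive library against at most 0.0692 FPKM in Apc and WT flox. Its log2 difference went from -11.42 to -0.50. Other calls lost in this fit also had smaller log2 differences, with Dusp4 going from 1.967 to 0.677 and Fzd1 from 2.478 to 0.917. Fzd3 went from 2.551 to 1.086, Wls from 1.445 to 0.878 and Wif1 from 6.182 to 3.758. The difference was larger for some lost calls, such as Areg (-1.104 to -1.365) and Reg3g (1.477 to 1.886). The cause of these shifts was not tested. CAAA01147332.1 was at 69.6, 91.2, 98.4 and 35.98 FPKM in Apc and 12.5 to 27.4 FPKM in WT flox, with no count in P-Rspo3 and 4.86 FPKM in the dox-naive library.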

How the data were processed

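Polyadenylated RNA of the organoids was sequenced by the authors, who aligned reads to GRCm38 with STAR, counted them per gene with HTSeq 0.6.0 and computed FPKM with Cufflinks 2.2.1. The annotation release and strand setting are not given in the sources used here, so overlapping and antisense genes may share reads. The deposited counts are whole reads per gene, not normalized. The deposited FPKM values are scaled by the authors to transcript length and mapped fragments. Gene symbols came from GENCODE annotation of GRCm38 for 42548 of 43629 identifiers.

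From the deposited counts, genes that reached 0.1 FPKM in 4 or more of the 8 libraries were tested with edgeR 4.0.16 (quasi-likelihood test, TMM, R 4.3.3), adjusted by Benjamini-Hochberg over all 16456 genes. A call required a log2 fold change (Apc minus P-Rspo3) beyond 1 in either direction together with an adjusted p below 0.05. On simulated counts for this comparison with 200 of 16456 genes changed 3-fold, 179 were recovered with 4 false calls among the unchanged genes. The simulation changed far fewer genes than were called here, and none that were low in P-Rspo3, so these rates need not hold for the data. FPKM of 5 genes were compared by two-sided exact permutation tests (scipy 1.17.1). Where every library of a group had 3 counts or fewer, the ratio of summed counts per total is given with its exact (Clopper-Pearson) 95% interval, or a lower bound against 3 counts per library where all were 0. Intervals and bounds cover counting error only. The labels give each library of a group its own title and do not say whether the libraries came from separate mice or independent lines, so p-values measure the spread between these samples, which may be technical.

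Named genes were, in each direction, the 12 largest fold changes among called genes with no overlap between groups and a mean of at least 10 FPKM in the higher group, the 3 largest FPKM differences, and in each list up to 4 called members with the largest change, up to 2 uncalled members with the highest FPKM, and members called against the list's median, with other list members added with their values. A few genes that met this rule are not reported here. The gene lists and members were chosen with earlier results of these data known. Alternatives were DESeq2 1.42.0, limma 3.58.1 on log2 FPKM, other filters, scalings and fits, and leaving out each library. The libraries LIPO and NAIVE_F, whose labels contradict each other, entered only as alternatives.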

Additional observations from a re-analysis of the deposited data

Results flagged for a closer look

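In 334 groups of 4 libraries, each the FPKM values of 1 named gene in 1 genotype with a library at 1 FPKM or more and without the genes of the sex chromosomes, 18 held a library whose gap to the nearest of the others exceeded Dixon's 95% critical value for 4 values. Chance gives this in about 1 in 20 groups (a share of 0.05), so the number flagged was near what chance gives. The values below are listed only and are not read as traits of a library.

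Among the P-Rspo3 libraries, line F was the highest for 3 genes and the lowest for 1. Its G6pc was at 49.2 FPKM against 6.80 to 13.5 in the other P-Rspo3 lines. Areg was at 94.9 FPKM there against 34.2 to 43.7. Irf7 was at 14.4 FPKM against 7.23 to 8.41. Tcf7l2 was lowest in line F, at 9.18 FPKM against 11.7 to 12.1.

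P-Rspo3 line 15d was the highest for 5 genes. Reg3g was at 74.0 FPKM against 16.8 to 23.6 in the other lines. Anxa1 was at 6.63 FPKM against 1.12 to 2.05. Pou2f3, the regulator of tuft cells, was at 2.57 FPKM against 1.01 to 1.24. Slc12a2 was at 181 FPKM against 129 to 137. Ctnnb1 was at 309 FPKM against 282 to 284, a small step above lines that lay close together.

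Among the Apc libraries, line 1 stood apart for 5 genes. It was the lowest for Mmp7, at 88.4 FPKM against 183 to 198, and for Slc9a3, at 8.86 FPKM against 18.1 to 19.5. It was also the lowest for the Wnt target Sp5, at 16.8 FPKM against 31.4 to 34.2, and for Ush1c, at 21.8 FPKM against 28.7 to 29.7. It was the highest for Dkk2, at 1.10 FPKM against 0.228 to 0.260. Apc line 5 had Hopx at 305 FPKM against 221 to 223 and Alox5ap, on which no weight is put, at 8.35 FPKM against 0.067 to 0.117. The Paneth cell defensin Defa24 was at 553 FPKM in Apc line 2 against 132 to 189, and Mxd1 was at 5.72 FPKM in Apc line 6 against 3.21 to 3.45.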

How the results depend on the processing

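The counts of 2209 higher and 2183 lower genes stayed within 1.5 times under DESeq2, DESeq2 size factors, library size scaling alone, no filter, limma on log2(FPKM + 0.1), glmTreat, the newer form of the edgeR test, all groups in 1 fit and either added library. They moved to 1264 higher genes with an FPKM of at least 1, to 1177 higher genes when each group was set against its own wild type, to 1430 higher and 1124 lower with limma on log2(FPKM + 1), and to 4719 higher and 4557 lower on the adjusted p alone. When any 1 library was dropped, the higher genes numbered 2104 to 2304 and the lower ones 2043 to 2191. The share of higher calls was 50.3%, against 61.8% with library size alone and 61.2% with limma on log2(FPKM + 0.1), where the median of all genes shifted by 0.26 and 0.25 on the log2 scale. The cause was not tested. With 1 library left out, the FPKM differences spanned 10.6 to 13.1 for Apc, 11.2 to 13.7 for Ptprk, -10.7 to -8.94 for Rspo3, 106 to 128 for Sox17 and 128 to 137 for Axin2, and p was 0.0571, the smallest that 3 against 4 allows. Signs turned for 10 of 207 named genes, of which Xist was the only one called. With library size alone, limma at 0.1 and limma at 1, Cdx2 was at 0.193, 0.181 and 0.179, Epcam at 0.193, 0.2 and 0.199, Lrp6 at 0.076, 0.090 and 0.084, Slc12a2 at 0.068, 0.1 and 0.099, and Wnt3 at 0.111, 0.009 and 0.032. Against its own wild type, Ccnd2 was at -0.19, Neurog3 at -0.224, Ddx3y at -11.02 and Uty at -9.471. With 1 library left out, Xist spanned -1.938 (without Apc line 6) to 9.379, Neurog3 spanned -0.265 (without Apc line 5) to 0.236, Cdx2 -0.127 to 0.00 (without P-Rspo3 line 15d) and Wnt3 -0.426 to 0.114 (above 0 without Apc line 1 or 6 or P-Rspo3 line 15d). The median of the cholesterol list turned to 0.08, 0.061 and 0.06 under the same 3 scalings. That of the interferon list was -0.009 with NAIVE_F and spanned -0.021 (without Apc line 6) to 0.39 with 1 library left out. Calls were lost for 36 named genes against the own wild type, 25 under glmTreat, 22 and 13 under limma at 1 and 0.1, and 8 with library size alone. No paired analysis was possible because the lines of the 2 genotypes share no replicate numbers. Apc and WT flox lines share numbers, but the labels do not say whether they are pairs. Their deviations from the group means correlated at -0.0207 to 0.201 for the same number and -0.172 to 0.173 for different numbers. These overlapping ranges, from 4 libraries per group, cannot decide whether the numbers mark pairs. With line as a replicate block in the own wild type comparison, an alternative chosen after seeing the data, 1112 genes were higher and 1513 lower, calls were lost for 35 named genes, and Ccnd2 was at -0.19, Neurog3 at -0.274, Ddx3y at -10.489 and Uty at -8.866.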

Other observations

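Genes of the sex chromosomes, looked at after their values were seen, differed between lines of the same group. Xist, the RNA that coats the inactive X chromosome, was at 287 FPKM in Apc line 6 and at 0.0136 to 0.0600 FPKM in Apc lines 1, 2 and 5. The Y-linked genes Ddx3y and Eif2s3y were at 14.4 to 16.9 and 44.8 to 58.6 FPKM in lines 1, 2 and 5 and were listed at 0 in line 6. Among the P-Rspo3 lines, Xist stayed between 0.0651 and 0.339 FPKM. Ddx3y was at 10.7 FPKM in line 4d and 0.993 FPKM in line M, and was listed at 0 in lines 15d and F. Uty was at 5.50 FPKM in line 4d and 0.695 FPKM in line M. In line 4d, Eif2s3y was at 0.0170 FPKM and Kdm5d was listed at 0, while Kdm5d was at 8.19 to 9.44 FPKM in Apc lines 1, 2 and 5. The part of these differences in the results was not tested.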
